A study of Mus musculus with 12 samples.

Results

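Small RNAs from the starts of 7 highly transcribed mouse genes, Actb, Actg1, Ran, Hnrnpk, Hsp90ab1, Ncl and Nop56, are described here, out of 21951 protein-coding genes in the GENCODE vM21 annotation of mouse genome GRCm38. The rule names the genes and uses no read value. A read was counted for a gene where its whole sequence, of 18 nt or more, matched the sense strand exactly and was held by no other gene and by no annotated small RNA gene. Reads whose 5′ end lay in the first 200 nt of any annotated transcript of the gene formed its start window, and all other reads formed the rest of the transcript. Levels are given as CPM, the read count scaled by the library's total.

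The 12 libraries came from mouse embryonic stem cells, from RNA cut from a gel at 18 to 75 nt. The 2 clonal lines carry a doxycycline-switched Ago2, the Argonaute protein that small RNAs guide. TT-FHAgo2 makes Ago2 with a FLAG-HA tag and TT-Ago2 makes it without a tag. Each line is 1 clone, and both were kept at 0.1 µg/mL doxycycline and induced at 2.5 µg/mL. The series' design text names cells without Ago proteins, and its title concerns small RNAs that come from polymerase II near promoters and bind Argonaute. The FLAG immunoprecipitate (IP) of TT-FHAgo2 is called the FHAgo2 IP, and the FLAG IP of TT-Ago2, in which the antibody has no tag to bind, the no-tag IP. Each has an input of its own line, the FHAgo2 input and the no-tag input. These 4 groups of 2 libraries, A and B, were cloned by circularization, whatever the chemistry of the RNA's 5′ end. The other 4 groups have 1 library each, cloned by ligation to a 5′ phosphate: TT-FHAgo2 with 2.5 µg/mL doxycycline, TT-FHAgo2 without doxycycline, Dicer-null cells without doxycycline and wildtype cells without doxycycline. The labels do not say whether libraries A and B are separate cultures, so each p-value sets a difference against a spread that may be technical only.

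The libraries held between 14474875 and 78762632 reads, and 3 reads, the limit that a count of 0 allows, correspond to between 0.0381 and 0.207 CPM. Embryonic stem cell markers were present in every library, with a summed level of 15.7 to 134 CPM over 12 genes. Fibroblast markers summed to at most 0.790 CPM over 8 genes and endoderm markers to at most 0.217 CPM over 5 genes. The 3 microRNA hairpins listed as fibroblast markers were not near 0 in every library. They summed to 256.2 and 197.5 CPM in FHAgo2 IP A and B, 240.9 CPM in wildtype cells and 161.2 CPM with doxycycline. Their sum was 3.01 CPM without doxycycline and 0.267 CPM in Dicer-null cells. The source of these hairpin reads was not tested. The FHAgo2 IP stood apart in its makeup: 23.6% of its A reads and 23.8% of its B reads lay outside microRNA hairpins, against 88.7% and 78.2% in the no-tag IP and 94.3 to 96.2% in the inputs. As a check of the labels, 4 embryonic stem cell hairpins summed to 5274 CPM with doxycycline, 149.8 CPM without it, 95.8 CPM in Dicer-null and 15540 CPM in wildtype cells. Over the whole gene, Dicer1 had 1.56 CPM in Dicer-null (123 reads), against 1.67 CPM in wildtype cells (54 reads), and Ago2 had 2.95 CPM with doxycycline (82 reads), against 2.83 CPM without it (75 reads). A library in which hairpins take more of the reads shows fewer CPM for every other gene, so levels are also given as CPM of the reads outside hairpins where a statement turns on it.

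Actb and Actg1 encode the cytoplasmic actins, Ran the small GTPase of nuclear transport, Hnrnpk a protein that binds poly(C) stretches of RNA, and Hsp90ab1 the constitutive cytosolic Hsp90 chaperone. Ncl encodes nucleolin and Nop56 a core protein of box C/D small nucleolar RNA (snoRNA) particles, both of the nucleolus where ribosomes are made. Introns of Ncl and Nop56 hold snoRNAs, which are trimmed out of the spliced intron and guide chemical changes of ribosomal RNA. RNA polymerase II often pauses shortly after it starts at such active genes, and short capped RNAs lie in the paused polymerase. A cap has no free 5′ phosphate, so the single libraries would not capture such RNAs unless the cap was removed.

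The 7 genes lie on 6 chromosomes. Actb (ENSMUSG00000029580.14) is at chr5:142903115-142906754 on the minus strand and Ran (ENSMUSG00000029430.13) at chr5:129020069-129024323 on the plus strand. Actg1 (ENSMUSG00000062825.15) is at chr11:120345690-120348542, minus, Hnrnpk (ENSMUSG00000021546.18) at chr13:58391142-58403343, minus, and Hsp90ab1 (ENSMUSG00000023944.14) at chr17:45567775-45573271, minus. Ncl (ENSMUSG00000026234.12) is at chr1:86344719-86359400, minus, and Nop56 (ENSMUSG00000027405.16) at chr2:130274430-130279313, plus.

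The name start window was only partly borne out by the reads. The annotation gives between 3 transcripts (Ran) and 34 transcripts (Hnrnpk) a gene, and many begin far inside it, so windows also covered coding exons, introns and even the 3′ UTR of Actb. Of the 434 window reads of the 7 genes in the FHAgo2 IP, 50.5% lay at the starts of the transcripts tagged basic in the annotation, called the gene start from here on. A further 41.5% lay at the start of another annotated transcript, and 8.06% overlapped a small RNA gene but ran past its annotated end. The no-tag IP had nearly the same makeup, with 1509 of its 3016 reads at the gene start, 41.9% at another start and 8.02% across a small RNA gene end. In the inputs the reads running past a small RNA gene took more, 37.6% of 779 reads in the FHAgo2 input and 31.5% of 774 reads in the no-tag input. In the single libraries the gene start held 12.2% with doxycycline, 14.8% without it, 18.9% in Dicer-null cells and 18.0% in wildtype cells.

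**Figure D1:**
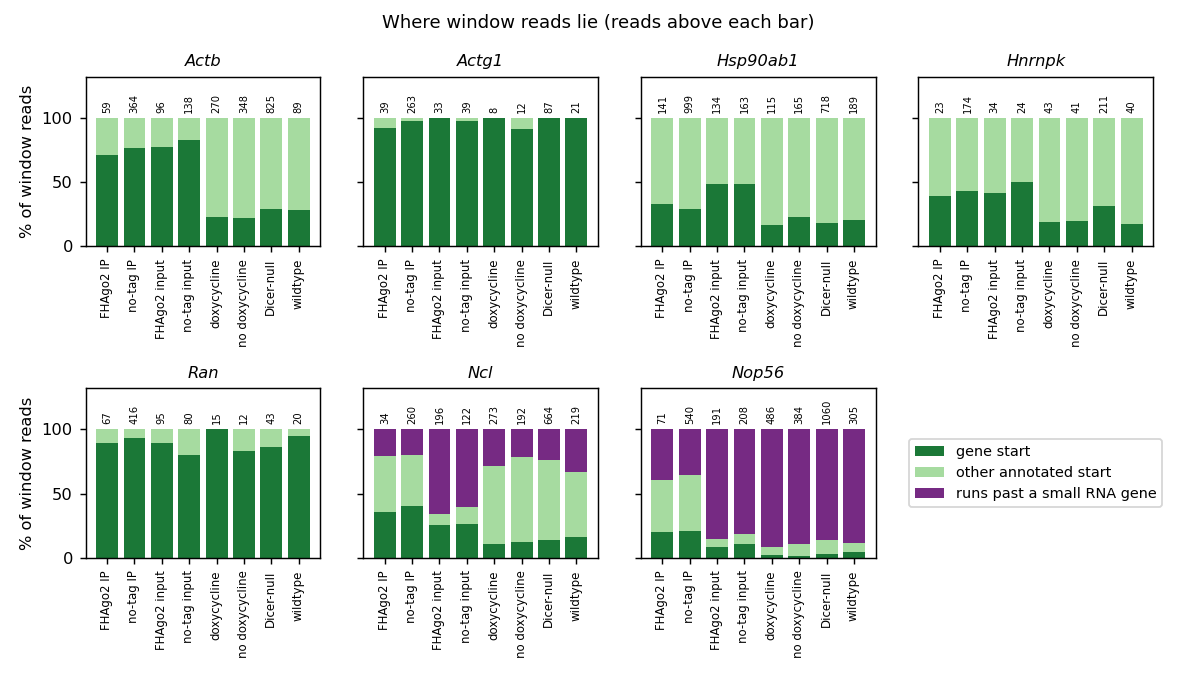
Share of each gene's window reads, in percent, that lay at the gene start, at the start of another annotated transcript, or across the end of a small RNA gene, in the 8 groups, with the number of reads above each bar. Actg1 and Ran reads lay almost wholly at the gene start, while Nop56 reads in the inputs and single libraries lay mostly across small RNA gene ends (85.9% in the FHAgo2 input).

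By gene, at least 91.7% of Actg1 window reads and at least 80.0% of Ran window reads lay at the gene start in every group. Actb had 71.2% of its window reads there in the FHAgo2 IP, 76.9% in the no-tag IP, 77.1% in the FHAgo2 input and 82.6% in the no-tag input, but 21.8 to 28.7% in the single libraries. Nop56 stood at the other end, with 39.4% of window reads across a small RNA gene end in the FHAgo2 IP, 35.2% in the no-tag IP, 85.9% in the FHAgo2 input and 81.7% in the no-tag input. Ncl was between them, with 7 of 34 reads in the FHAgo2 IP, 52 of 260 in the no-tag IP, 129 of 196 in the FHAgo2 input and 74 of 122 in the no-tag input. Reads whose sequence another gene also holds were left out, and this loss was largest for Hnrnpk and Actg1, which have close copies elsewhere in the genome. It removed 47.7 to 79.7% of Hnrnpk window reads and 57.4 to 77.8% of Actg1 window reads by group, so the levels of these genes are lower bounds on their own reads.

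The sequences below are the RNAs on which the results turn, read from the deposited sequences and matched to GRCm38 by the annotation. The first set shows the last 20 nt of the first exon of 4 genes, with the last 3 nt in capitals, because many window reads ended at exactly that base. Ran is chr5:129020259-129020278 on the plus strand, Actb chr5:142906652-142906671 on the minus strand, Actg1 chr11:120348425-120348444 on the minus strand and Nop56 chr2:130274457-130274476 on the plus strand; all but the last 3 nt of Nop56 are 5′ UTR.
Ran exon 1 end: cgcggagactcttctggAAG
Actb exon 1 end: cggtccacacccgccacCAG
Actg1 exon 1 end: cgccgccgcgtccttcgCCG
Nop56 exon 1 end: ggcacggagcaggcgccATG

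The next set shows RNAs that ran past the annotated end of a snoRNA gene in an intron of Nop56 or Ncl. Capitals mark the snoRNA end motif, CTGA (box D) or ACA, and the letters after it hold the bases beyond the annotated end. They are, in order, from Snord57 (chr2:130278061-130278089, 2 nt past the end), from the snoRNA gene Gm23650 (chr2:130277744-130277767, 1 nt past), from the snoRNA gene Gm24451 (chr2:130276349-130276370, 1 nt past) and from Snora75 in Ncl (chr1:86351168-86351190, minus, 1 nt past). On its own a motif this short says little, since 18.5% of 9430 distinct member reads of 18 to 30 nt outside small RNA genes hold CTGA and 24.3% hold ACA on the sense strand searched.
Nop56 Snord57 end: atacaactgatttaatgagcCTGAtccag
Nop56 Gm23650 end: gttgacaccttgggtCTGAgtgaa
Nop56 Gm24451 end: attgtgaatggggagACAcggg
Ncl Snora75 end: ttggctgttgtgtgagACAttat

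Window levels of every one of the 7 genes were lower in both FHAgo2 IP libraries than in both no-tag IP libraries. Hsp90ab1 had 4.81 CPM in A and 2.06 CPM in B of the FHAgo2 IP, against 38.96 and 17.0 CPM in the no-tag IP. Nop56 had 2.07 and 1.23 CPM, against 22.6 and 7.68 CPM. Neither gene's groups overlapped, and in each group A was above B. Ran had the reverse order of replicates, with 1.16 CPM in A and 1.59 CPM in B of the FHAgo2 IP, against 7.57 and 15.5 CPM in the no-tag IP. Actb had 1.83 and 0.964 CPM in the FHAgo2 IP, against 12.4 and 7.90 CPM in the no-tag IP. Actg1 had 1.70 and 0.365 CPM, against 7.17 and 7.46 CPM. The no-tag IP libraries thus differed little for Actg1, while the FHAgo2 IP libraries were far apart. Hnrnpk had 0.791 and 0.332 CPM in the FHAgo2 IP, against 6.44 and 3.29 CPM in the no-tag IP. Ncl had 1.52 and 0.299 CPM, against 11.3 and 3.24 CPM, with library A far above B in both IPs. These are levels in IPs, which also depend on the hairpin share of each library, so they do not measure expression in the cells. In bulk libraries like these, fewer cells that make an RNA and less of it per cell cannot be told apart either.

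**Figure D2:**
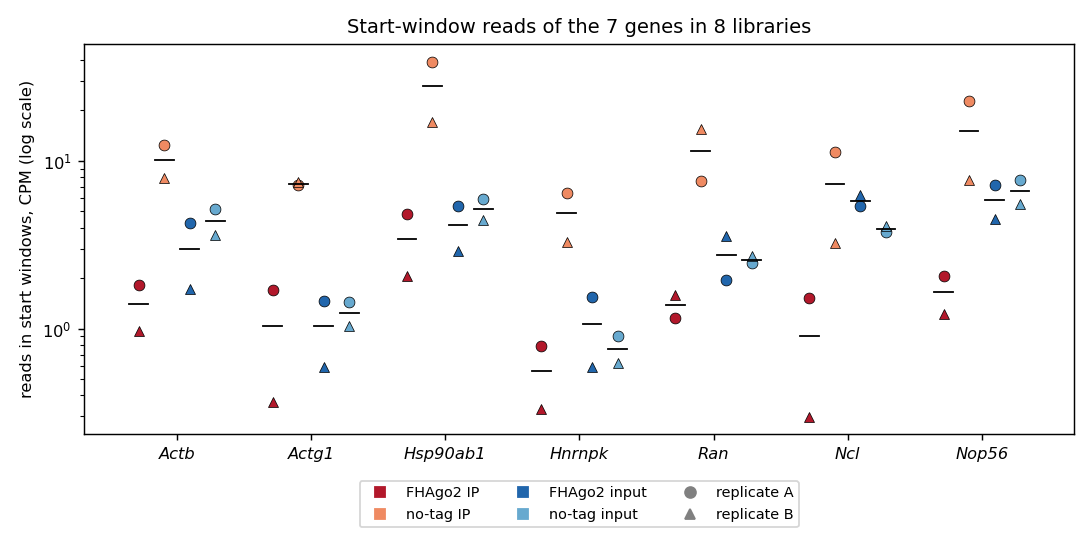
Start-window level of each of the 7 genes in CPM, on a log scale, in the 8 libraries of the FHAgo2 IP, no-tag IP, FHAgo2 input and no-tag input, with 1 point for each library and a bar at the mean of the 2. For every gene the no-tag IP points lie above the FHAgo2 IP points, for Hsp90ab1 at 38.96 and 17.0 CPM against 4.81 and 2.06 CPM.

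By edgeR's quasi-likelihood test with Benjamini-Hochberg adjustment over all 928 windows tested, all 7 windows were lower in the FHAgo2 IP than in the no-tag IP. So were 86.1% of all windows tested, and the median log2 difference was −3.05 over the 7 genes beside −2.63 over all windows. The log2 differences of the genes spanned −2.87 (Actg1, SE 0.69, adjusted p = 0.00121, edgeR) to −3.21 (Nop56, SE 0.66, adjusted p = 0.000636, edgeR). All 7 calls were lost once the scaling was taken from the windows themselves: with TMM factors the median of all windows moved to −0.08 and that of the 7 genes to −0.56, with no gene called. Scaled to reads outside hairpins, the 7 windows summed to 58.8 and 28.7 CPM in the FHAgo2 IP, against 120.0 and 79.2 CPM in the no-tag IP, still without overlap. No gene was called on that scale, where the median of the 7 genes was −1.20 beside −0.53 over all windows, and none was called without FHAgo2 IP library B. The part of the hairpin share in these differences beyond that rescaling was not tested.

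**Figure D3:**
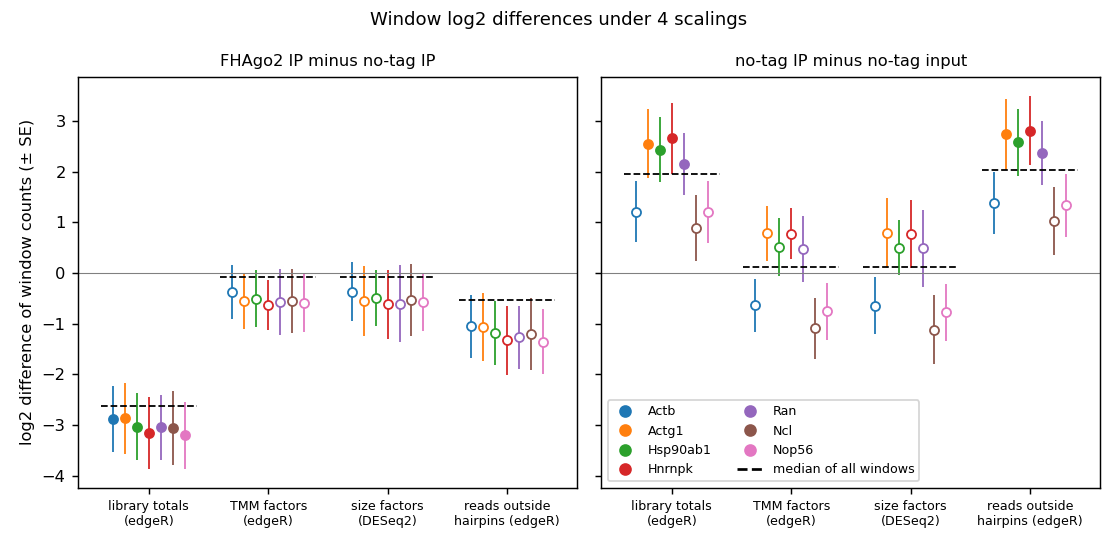
Log2 differences of window counts with their SE for the 7 genes under 4 scalings, for FHAgo2 IP minus no-tag IP (left) and no-tag IP minus no-tag input (right), with filled points for an adjusted p under 0.05 and dashed lines for the median of all windows. The FHAgo2 IP minus no-tag IP values sit between −2.87 and −3.21 with library totals and around a median of −0.56 with TMM factors.

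Against its own input, the FHAgo2 IP was lower for 1 gene, Ncl. Its window had 1.52 and 0.299 CPM in the FHAgo2 IP, against 5.35 and 6.24 CPM in the FHAgo2 input, without overlap. The log2 difference was −2.73 (SE 0.72, adjusted p = 0.0115, edgeR's quasi-likelihood test), in a comparison where 4.53% of all windows were called lower. Most of the Ncl input reads were those running past snoRNA ends, with 7 of 34 such reads in the FHAgo2 IP, against 129 of 196 in the FHAgo2 input. With such reads left out, the Ncl difference was −1.61 with an adjusted p of 0.261 by edgeR. Nop56 had a log2 difference of −1.83 (adjusted p = 0.0704, edgeR), and 0.27 without those reads. The other 5 genes had differences between −1.12 (Actb, adjusted p = 0.381, edgeR) and −0.04 (Actg1, adjusted p = 0.986, edgeR). The Ncl call was also lost without FHAgo2 IP library B. Scaled to reads outside hairpins, Actg1 had a log2 difference of 1.97 (adjusted p = 0.0396, edgeR) and Hsp90ab1 one of 1.74 (adjusted p = 0.0426, edgeR), higher in the FHAgo2 IP, and no gene was called lower. These 2 of 7 stand beside 31.4% of 1398 windows called higher on that scale. There the direction turned for 6 of the 7 genes, to 0.89 for Actb, 1.02 for Ran, 1.04 for Hnrnpk and 0.18 for Nop56 among those not called, with Ncl at −0.72. The median of the 7 was 1.02 on that scale, beside 1.88 over all windows.

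The no-tag IP was higher than the no-tag input for 4 of the 7 windows. Hnrnpk had 6.44 and 3.29 CPM in the no-tag IP, against 0.900 and 0.622 CPM in the no-tag input, a log2 difference of 2.66 (SE 0.70, adjusted p = 0.00535, edgeR's quasi-likelihood test). Actg1, with 1.44 and 1.04 CPM in the no-tag input, differed by 2.55 (adjusted p = 0.00562, edgeR). Hsp90ab1, with 5.94 and 4.42 CPM there, differed by 2.43 (adjusted p = 0.00539, edgeR). Ran, with 2.46 and 2.69 CPM there, differed by 2.16 (adjusted p = 0.00722, edgeR). Actb (1.21, adjusted p = 0.0753), Nop56 (1.19, adjusted p = 0.0810) and Ncl (0.89, adjusted p = 0.215) did not pass the edgeR test, and all 3 were below 0 with TMM factors. The 4 of 7 stand beside 59.9% of all windows called higher, and none of the 7 was called with TMM factors or DESeq2, nor without no-tag input library A or B. With reads across a small RNA gene left out, 6 of 7 were called by edgeR, beside 60.6% of 917 windows. Between the inputs of the 2 lines edgeR called no window at all (15 at an unadjusted p under 0.05, and 10 by DESeq2, which also called none), and the 7 genes ranged between log2 differences of −0.55 (Actb) and 0.56 (Ncl).

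The change over input itself differed between the lines for 5 of the 7 windows by the interaction test of edgeR, beside 20.5% of all windows called lower. The differences, FHAgo2 minus no-tag, were −3.62 for Ncl, −3.61 for Hnrnpk, −3.15 for Ran and −3.03 for Nop56, each with an adjusted p of 0.0316 by edgeR, and −2.70 for Hsp90ab1 (adjusted p = 0.0360, edgeR). Actb (−2.33) and Actg1 (−2.59) both had an adjusted p of 0.0515 by edgeR. None of the 7 was called with TMM factors, where the median of the genes was −0.67. None was called either without FHAgo2 IP library B, FHAgo2 input library A or no-tag input library A or B, 1 was called without FHAgo2 IP library A and 3 without no-tag IP library A, and the values stayed below 0 with any 1 library left out.

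At the gene start alone the genes came in the same order per length in both IPs. In the no-tag IP the density was 4.09 ± 1.79 CPM per 100 nt for Hsp90ab1, 3.10 ± 0.719 for Actb and 2.68 ± 1.49 for Ran (SD, n = 2 throughout). Actg1 followed with 2.16 ± 0.0394, Ncl with 1.46 ± 1.01, Nop56 with 1.40 ± 0.711 and Hnrnpk with 0.278 ± 0.157 CPM per 100 nt. Each gene's libraries overlapped those of its neighbour in this order except at the last step, where both Hnrnpk libraries (0.389 and 0.167) were under both Nop56 libraries (1.91 and 0.902). In the FHAgo2 IP the densities spanned 0.575 ± 0.391 (Hsp90ab1) to 0.0326 ± 0.0337 CPM per 100 nt (Hnrnpk).

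The gene start was denser in reads than the rest of the transcript for most genes in the circularization libraries. Ran had 10.2 times the density of its rest in the FHAgo2 IP, 9.86 times in the no-tag IP, 12.8 times in the FHAgo2 input and 13.6 times in the no-tag input. Ncl had 7.68 and 7.82 times in the FHAgo2 and no-tag IPs and 23.7 and 17.0 times in the FHAgo2 and no-tag inputs. Density divides by all annotated bases, and the Ncl rest spans 9152 nt, against 1931 (Actb) to 3820 nt (Hnrnpk) for the other genes. The part of this length in the Ncl ratios, here and below, was not tested. Actb lay lower, between 2.72 times in the FHAgo2 IP and 6.02 times in the no-tag input. In the 5′-phosphate libraries the gene start of Actg1, Ran, Hnrnpk and Hsp90ab1 was less dense than the rest, with Ran at 0.222 to 0.641 times. Ncl (1.98 to 3.20 times) and Nop56 (1.59 to 2.58 times) kept a denser gene start there. The cloning protocols were used on different libraries, so protocol and sample cannot be told apart.

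The 5′ ends of gene-start reads were spread over many positions, with 68 (Actg1, Nop56) to 146 (Actb) distinct ends a gene over the 12 libraries. Ran had the most used one, chr5:129020234 in its 5′ UTR, 166 nt into Ran-201, with 31.9% of the gene-start reads. It had 29 reads in the FHAgo2 IP and 156 in the no-tag IP, against 15 in the FHAgo2 input and 14 in the no-tag input. Of the 156 no-tag IP reads 133 came from library B, and of the 29 FHAgo2 IP reads 26, so this end rests mostly on the B libraries. In Nop56, 21.9% of gene-start reads began at chr2:130274446, 17 nt into Nop56-202, with 2 reads in the FHAgo2 IP and 34 in the no-tag IP (32 of them in library A), against 4 in the FHAgo2 input and 5 in the no-tag input. In Actg1 the leading end was chr11:120348469, 74 nt into Actg1-202, with 4 FHAgo2 IP, 50 no-tag IP, 1 FHAgo2 input and 4 no-tag input reads. In Actb the end at chr5:142906685, 70 nt into Actb-201, had 3 FHAgo2 IP, 35 no-tag IP, 0 FHAgo2 input and 2 no-tag input reads. It had none in the 5′-phosphate libraries. Their leading end was chr5:142905673 in the coding sequence (11 reads with doxycycline, 8 without, 29 in Dicer-null and 3 in wildtype cells). That end also had 1 FHAgo2 IP, 3 no-tag IP, 1 FHAgo2 input and 5 no-tag input reads. Hsp90ab1 began most often at chr17:45573266, 6 nt into Hsp90ab1-201, and Ncl at chr1:86359351, 50 nt into Ncl-201, each with under 8% of gene-start reads. Hnrnpk had 8.54% of its gene-start reads at its leading end, chr13:58402455.

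A minority of window reads began at the annotated first bases. Of all window reads of the 7 genes 10.4% ± 4.47 began in the first 5 nt of a transcript in the FHAgo2 IP and 9.52% ± 1.31 in the no-tag IP, against 7.94% ± 5.18 in the FHAgo2 input and 13.1% ± 0.190 in the no-tag input (SD, n = 2). In the 5′-phosphate libraries the share was 1.24 to 3.85%. Among gene-start reads alone it was higher, at 25.9% and 12.6% in A and B of the FHAgo2 IP and 19.7% and 16.1% in the no-tag IP. It was 26.3% and 10.1% in the FHAgo2 input, 27.3% and 27.0% in the no-tag input and 4.68 to 12.6% in the 5′-phosphate libraries.

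The most read short RNA at the gene start is printed for 5 genes, and for most of them it rests on few reads. The rule was the highest count over all 12 libraries among sequences of at most 30 nt, with no capitals in them. Ran's, at chr5:129020177-129020194 (plus), had 1 read in the FHAgo2 IP, 15 in the no-tag IP, 38 in the FHAgo2 input and 14 in the no-tag input, 37 of the 38 in library B. Actg1's is at chr11:120348473-120348492 (minus, 8 reads in all) and Hsp90ab1's at chr17:45573246-45573266 (minus, 10 reads). Nop56's is at chr2:130274446-130274473 (plus, 7 reads), and all 4 are 5′ UTR. Among the genes not printed, Actb's lay in a coding exon (chr5:142905644-142905671, minus, 10 reads). Hnrnpk's lay in the 5′ UTR across a splice junction (chr13:58400403-58402404, minus, 7 reads). Ncl's, at chr1:86359341-86359358 (minus, 5′ UTR), was read only with a 5′ phosphate, 6 times with doxycycline, 9 times in Dicer-null and 3 times in wildtype cells.
Ran gene start RNA: cccccctccgcgcgccgg
Actg1 gene start RNA: ctcacactccgccgccggct
Hsp90ab1 gene start RNA: ctcttgagtcacccccgcgca
Nop56 gene start RNA: attgcgagctgggcacggagcaggcgcc
Ncl gene start RNA: tagctgtagctggcaggc

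The 3′ ends of window reads fell on the last base of the first exon far more often than beside it. This was measured after the values had been seen. At that base ended 57 FHAgo2 IP and 472 no-tag IP reads, against 31 FHAgo2 input and 39 no-tag input reads. One base before it ended 1, 15, 7 and 9 reads in the same groups, and 1 base after it 2, 24, 3 and 4. Counting the last base of any exon, the reads were 62 of 434 in the FHAgo2 IP (14.3%), 587 of 3016 in the no-tag IP (19.5%), 33 of 779 in the FHAgo2 input (4.24%) and 40 of 774 in the no-tag input (5.17%). By library the share was 8.33% and 20.9% in the FHAgo2 IP, 14.9% and 27.1% in the no-tag IP, 5.43% and 2.94% in the FHAgo2 input and 6.14% and 3.77% in the no-tag input. Each IP was above its input without overlap, and the IPs overlapped each other. Ran alone gave most of the exon-end reads in the FHAgo2 IP and in both inputs, and more than any other gene in the no-tag IP. These pooled shares thus rest largely on that gene. The exact two-sided permutation p was 0.333 for each IP against its input, the smallest that 2 against 2 libraries can give. In the rest of the transcript such ends were 0.665% of reads in the FHAgo2 IP and 2.24% in the no-tag IP, with none among 766 FHAgo2 input and 734 no-tag input reads.

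**Figure D4:**
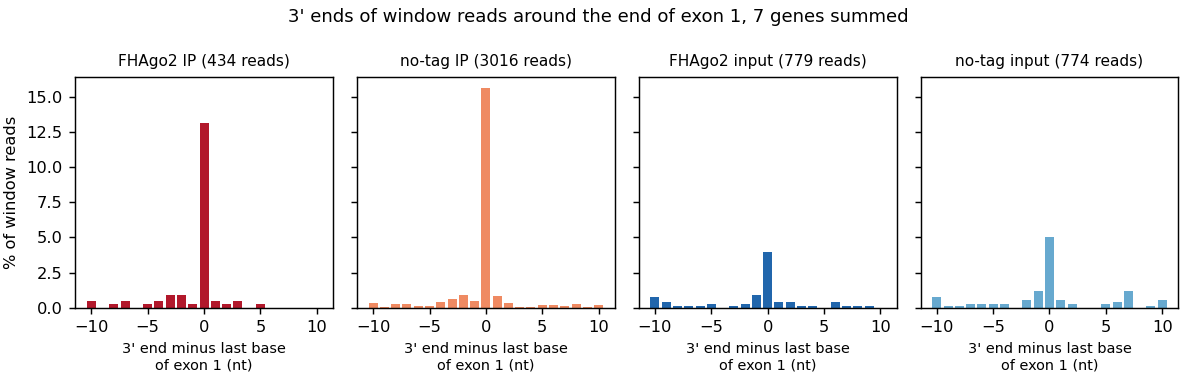
Share of window reads of the 7 genes, in percent, whose 3′ end lay at each distance in nt from the last base of exon 1, in the FHAgo2 IP, no-tag IP, FHAgo2 input and no-tag input. Distance 0 stands out in each panel, with 57, 472, 31 and 39 reads in that order, most of them from Ran in the FHAgo2 IP and the inputs.

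Ran had the highest share of these ends. Its window reads ended at the exon end in 44 of 67 cases in the FHAgo2 IP (65.7%, 95% Clopper-Pearson interval 53.1 to 76.8%) and 274 of 416 in the no-tag IP (65.9%, 61.1 to 70.4%). It was 25 of 95 for the FHAgo2 input (26.3%, 17.8 to 36.4%) and 28 of 80 for the no-tag input (35.0%, 24.7 to 46.5%), with intervals that cover counting error only. By library the Ran share was 47.4% and 72.9% in the FHAgo2 IP, against 55.2% and 13.6% in the FHAgo2 input, which overlap, and 58.2% and 69.5% in the no-tag IP, against 48.8% and 20.5% in the no-tag input, which do not. The low input values are those of the B libraries. There the 18 nt Ran RNA took 37 of 66 window reads in the FHAgo2 input and 11 of 39 in the no-tag input. Its part in the low shares was not tested. Ran reads of 45 nt, from chr5:129020234 to the exon end at 129020278, made up 25 of the 67 and 131 of the 416. Actg1 had 17.9% in the FHAgo2 IP and 24.7% in the no-tag IP, against 6.06% in the FHAgo2 input and 2.56% in the no-tag input. For Nop56 the shares were 7.04% and 21.1% in the FHAgo2 and no-tag IPs, and 1.57% and 3.37% in the FHAgo2 and no-tag inputs. Actb had 8.47% and 16.5% in the FHAgo2 and no-tag IPs, with 0 of 96 in the FHAgo2 input and 3 of 138 in the no-tag input. Hnrnpk had no such read in the FHAgo2 IP or the inputs and 4 of 174 in the no-tag IP, and Hsp90ab1 none of 141 in the FHAgo2 IP. The bases at which the Ran, Actb, Actg1 and Nop56 reads stopped are the capitals printed above. Those 4 ends share the last letter, G, but not all of the last 3 letters. Of the genes not printed, exon 1 of Hsp90ab1 and of Ncl ends in AAG, as that of Ran does, and exon 1 of Hnrnpk in CCT.

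Such ends were not particular to these genes. Among the window reads of all other protein-coding genes 3.65% and 4.21% ended at the end of exon 1 in the FHAgo2 IP, 8.52% and 14.4% in the no-tag IP, 1.68% and 0.695% in the FHAgo2 input and 2.07% and 1.61% in the no-tag input. In the no-tag IP 70 of 261 other genes with 50 or more window reads had 10% or more of their reads there in library A (26.8%), and 53 of 119 in library B (44.5%). Such genes were fewer elsewhere, with 0 of 15 and 5 of 33 in the FHAgo2 IP. They were 2 of 22 and 3 of 23 in the FHAgo2 input and 4 of 27 and 3 of 20 in the no-tag input. The median share over genes with 50 or more reads was 0 in every library but no-tag IP library B (5.45%). In the 5′-phosphate libraries 0.607 to 1.59% of the 7 genes' window reads ended at an exon end. The longest read was 50 nt in the A libraries and 51 nt in the B libraries but 40 nt in these, so a longer RNA, such as the 45 nt Ran RNA, could not be read to its end there. Among window reads under 40 nt such ends were 25 of 290 in the FHAgo2 IP (8.62%), 338 of 2106 in the no-tag IP, 12 of 670 in the FHAgo2 input (1.79%), 21 of 670 in the no-tag input (3.13%) and 0.669 to 1.67% in the 5′-phosphate libraries.

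Window reads were longer in the IPs than in the inputs. The median length was 34 nt in both FHAgo2 IP libraries and 33 and 34 nt in the no-tag IP, against 27 and 24 nt in the FHAgo2 input and 27 and 23 nt in the no-tag input. This was not particular to the windows. In the rest of the transcripts, small RNA genes apart, the medians were 33 and 29 nt in the FHAgo2 IP and 34 and 32 nt in the no-tag IP. The FHAgo2 input had 26 and 24 nt there and the no-tag input 27 and 23 nt. Reads of 20 to 24 nt, the size range of microRNAs, took 18.5% ± 1.32 in the FHAgo2 IP and 18.5% ± 1.91 in the no-tag IP, against 34.8% ± 3.41 in the FHAgo2 input and 33.6% ± 8.10 in the no-tag input (SD, n = 2). Reads over 24 nt made up 74.4% ± 0.205 and 74.4% ± 3.93 in the FHAgo2 and no-tag IPs, and 48.6% ± 11.2 and 50.5% ± 13.2 in the FHAgo2 and no-tag inputs. The IPs were apart from their inputs in both measures (exact two-sided permutation p = 0.333 each, the smallest possible here). Between the 2 IPs the 20 to 24 nt shares overlapped (exact permutation p = 1).

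**Figure D5:**
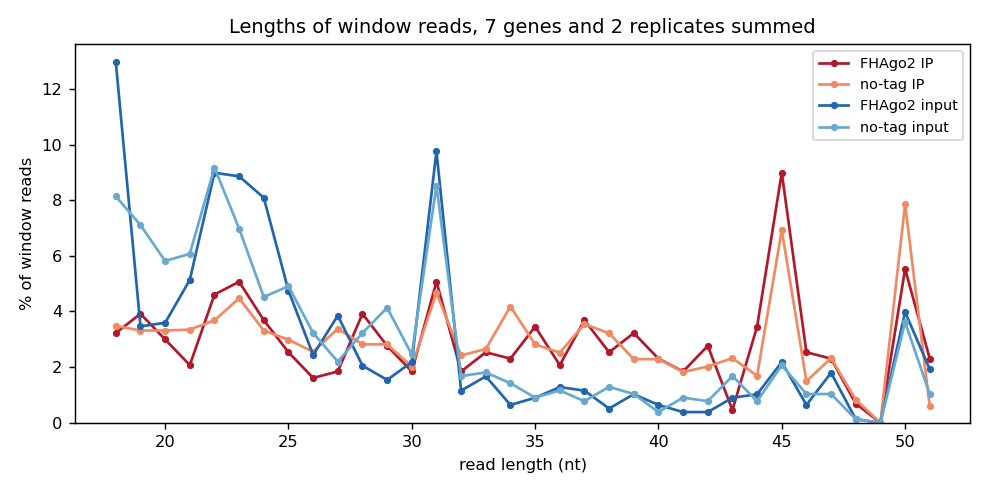
Length in nt of the window reads of the 7 genes, in percent of each group's reads with both replicates summed, for the FHAgo2 IP, no-tag IP, FHAgo2 input and no-tag input. The Ran RNA that ends at the exon end made up 25 of 39 reads of 45 nt in the FHAgo2 IP and 131 of 209 in the no-tag IP, and reads of 50 nt (7.86% in the no-tag IP) include RNAs longer than the sequencing could read.

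Single RNAs took a large part of some lengths. At 31 nt, Nop56 reads past the end of Gm23650 (chr2:130277737-130277767) were 59 of 76 reads in the FHAgo2 input and 57 of 66 in the no-tag input. They made up 30.9% and 27.4% of Nop56 window reads in those inputs. At 18 nt, the Ran RNA at chr5:129020177 was 38 of 101 reads in the FHAgo2 input and 14 of 63 in the no-tag input, so most reads of that length were others. The first base of window reads was A in 57.2% ± 1.49 in the FHAgo2 IP and 62.0% ± 5.28 in the no-tag IP, against 35.3% ± 8.72 in the FHAgo2 input and 39.8% ± 5.13 in the no-tag input. The base that microRNAs often begin with, T in these DNA letters, opened 18.3% ± 2.29 and 17.0% ± 7.18 in the FHAgo2 and no-tag IPs, and 35.2% ± 9.97 and 29.0% ± 7.49 in the FHAgo2 and no-tag inputs. For both bases each IP was apart from its input, and the IPs overlapped each other (exact permutation p = 0.667 for A and 1 for T). Among gene-start reads alone the T shares of the no-tag IP (13.4% and 20.5%) overlapped those of its input (17.7% and 25.7%). The T shares of the FHAgo2 IP and its input, and the A shares of both IPs and their inputs, stayed apart there. In the rest of the transcripts, small RNA genes apart, the A shares differed likewise. They were 60.3% and 53.7% in the FHAgo2 IP, against 45.7% and 33.2% in its input. The no-tag IP had 65.3% and 53.0%, against 41.9% and 43.9% in its input.

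In the rest of the transcript the FHAgo2 IP was again below the no-tag IP for all 7 genes, beside 85.1% of 3635 transcripts tested. The differences ran between −3.76 (Hnrnpk, adjusted p = 0.00201, edgeR's quasi-likelihood test) and −2.12 (Nop56, adjusted p = 0.0251, edgeR). None of the 7 was called against the FHAgo2 input, where 0.743% of all were called lower. Scaled to reads outside hairpins, 2 were called higher than that input, Hnrnpk (2.68, adjusted p = 0.0220, edgeR) and Hsp90ab1 (2.07, adjusted p = 0.0362, edgeR), beside 46.4% of 4919 transcripts. The median of the 7 on that scale was 1.44, beside 2.34 over all. The no-tag IP was above its input for 6 genes, beside 84.8% of all, with Hnrnpk at 4.01, Hsp90ab1 at 3.06, Ran at 2.82, Ncl at 2.61, Actg1 at 2.13 and Actb at 2.01. Nop56 had 1.11 (adjusted p = 0.211, edgeR). No gene's change over input differed between the lines by the edgeR test, beside 0.825% of all. Both sets of calls were lost with TMM factors or DESeq2. Nop56 then had a log2 difference of 0.46 with TMM factors between the FHAgo2 and no-tag IP. The 7 calls were also lost without FHAgo2 IP library A or B, and 1 was left without no-tag IP library A; the 6 were lost without no-tag input library A or B, and 1 was left without no-tag IP library A.

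The share of reads that fell in the windows, which no scaling changes, was 36.6% ± 1.66 in the FHAgo2 IP and 40.6% ± 7.42 in the no-tag IP, against 51.8% ± 10.5 in the FHAgo2 input and 53.1% ± 8.67 in the no-tag input (SD, n = 2). Each IP lay under its input in all libraries, by an exact permutation p of 0.333, and the IPs overlapped. In the 5′-phosphate libraries it was 9.55 to 11.2%.

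Most reads outside the windows in the 5′-phosphate libraries, 8053 of 10387 with doxycycline, lay across the end of Snord57 in intron 10 of Nop56-202. Reads running past Snord57 numbered 8053 with doxycycline (289 CPM), 6821 without (257 CPM), 20020 in Dicer-null cells (254 CPM) and 6464 in wildtype cells (200 CPM). In the circularization libraries they had 0.432 to 4.86 CPM in the IPs and 2.14 to 6.69 CPM in the inputs. The 29 nt form printed above had 2941 reads with doxycycline, 2411 without, 7376 in Dicer-null and 2558 in wildtype cells, and 1 in the 8 other libraries. Of the Nop56 reads outside windows 99.2 to 99.6% overlapped a small RNA gene in the 5′-phosphate libraries, beside 31.9% in the FHAgo2 IP, 51.2% in the no-tag IP, 94.1% in the FHAgo2 input and 88.1% in the no-tag input. The Gm23650 form had 260, 201, 490 and 154 reads with doxycycline, without it, in Dicer-null and in wildtype cells, and 3 elsewhere. The printed H/ACA forms, each a single sequence, were read mostly in the inputs. The Gm24451 form had 2 and 7 reads in the FHAgo2 and no-tag IPs, 29 and 25 in the FHAgo2 and no-tag inputs and none with a 5′ phosphate. The Snora75 form had 1 and 6 reads in those IPs, 47 and 28 in those inputs, and 5 in all with a 5′ phosphate. This did not hold for all reads running past Snora75. They had 3.92 to 4.99 CPM in the 5′-phosphate libraries, against 2.10 to 5.11 CPM in the inputs. All reads running past Gm24451 had 0.558 to 0.970 CPM in the 5′-phosphate libraries, against 1.18 to 2.47 CPM in the inputs.

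Between the single libraries there is no replicate check, and ratios carry only counting intervals. The summed windows of the 7 genes had 43.5 CPM both with and without doxycycline, a ratio with a 95% interval of 0.922 to 1.08, beside a median of 0.891 over 1148 windows with 20 reads or more. Without doxycycline they stood 1.59 times above wildtype (1.45 to 1.74; median of all 1.18), and in Dicer-null cells 1.67 times above wildtype (1.55 to 1.80; median of all 1.54). Actb led: its window had 13.1 CPM without doxycycline, against 2.76 CPM in wildtype, a ratio of 4.75 (3.75 to 6.07), and 10.5 CPM in Dicer-null cells, a ratio with an interval of 3.05 to 4.78. Hnrnpk was 2.16 times higher in Dicer-null cells (1.53 to 3.11). So 1 of 7 genes was at least 2-fold higher without doxycycline, beside 14.9% of all windows, and 2 of 7 in Dicer-null cells, beside 31.6%. Scaled to reads outside hairpins, Actb was 3.60 times higher without doxycycline and 2.88 times in Dicer-null cells, and Hnrnpk 1.64 times in Dicer-null cells. That is 1 of 7 windows in each comparison, beside 6.71% of all without doxycycline and 18.1% in Dicer-null cells. None of the 7 changed 2-fold between doxycycline and none, beside 3.57% of windows higher and 9.76% lower. Outside windows 1 of 7, Actb at 2.63 times, was at least 2-fold above wildtype without doxycycline, beside 23.7% of all transcripts. In Dicer-null cells 2 of 7 were, Actb at 2.60 and Actg1 at 2.43 times, beside 37.2%. Scaled to reads outside hairpins none of the 7 was, with Actb at 1.99 times without doxycycline and 1.97 times in Dicer-null cells and Actg1 at 1.84 times, beside 11.8% and 20.2% of all. None changed 2-fold between doxycycline and none, beside 1.96% higher and 12.8% lower. Of the window's most read RNAs, Actb's lay in its 3′ UTR (chr5:142903291-142903320, minus; 5 reads with doxycycline, 5 without, 16 in Dicer-null and 1 in wildtype cells). Ncl's lay in a coding exon (chr1:86351399-86351426, minus; 33, 10, 46 and 10 reads in the same order). Both are windows of transcripts that begin far inside the gene.
Actb 3′ UTR RNA: tttttaaatcttccgccttaatacttcatt
Ncl coding exon RNA: atttgagggctctgttcgtgcaagaata

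For genes of related roles, counts are over windows that passed the filter on low counts, which the no-tag IP did most to set, so they support nothing about the lists. The FHAgo2 IP was below the no-tag IP, by edgeR, for 6 of 6 tested windows of 25 listed snoRNA-particle and nucleolar genes, such as Npm1 (nucleophosmin, 0.645 against 5.77 CPM), and for 19 of 19 of 22 snoRNA hosts, such as Rps12 (2.14 against 24.6 CPM). It was below for 11 of 11 of 17 actin and tubulin genes (Tuba1b, 0.603 against 5.93 CPM) and 13 of 13 of 20 heat shock chaperones (Hsp90aa1, 0.512 against 4.88 CPM). The counts were 5 of 5 of 15 in the Ran transport cycle (Kpnb1, importin beta, 0.144 against 1.63 CPM), 13 of 14 of 21 hnRNP proteins (Hnrnph1, 0.847 against 11.5 CPM) and 16 of 17 of 25 other housekeeping genes (Atp5b, 1.52 against 8.08 CPM). The other gene named in each list had a log2 difference of −2.71 (Ubtf), −2.74 (Rack1), −2.73 (Tubb5), −2.59 (Cct8), −2.65 (Cse1l), −3.20 (Pcbp2) and −2.41 (Eef1b2), all past the edgeR test. The median log2 differences of the lists lay between −3.01 and −2.43, beside −2.63 over all windows, of which 86.1% were called lower. With TMM factors edgeR called 1 of all 928 windows lower. Above the no-tag input were 5, 14, 6, 8, 4, 10 and 9 of those tested in the no-tag IP, in the same order of lists, beside 59.9% of all windows.

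Across the 12 libraries the windows whose profile was most like the mean of the 7 genes were Pcbp2 (Pearson r = 0.952), Cox4i1 (0.952), Mat2a (0.948), Atp5b (0.947) and H2afz (0.935), among windows with a mean of at least 1 CPM. Among the 7, Hnrnpk (0.928) and Hsp90ab1 (0.917) followed the mean of the other 6 closest and Ran least (0.322). These r values describe the profiles only, since all points share the libraries' depth and makeup.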

How the data were processed

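The deposited files have no header line and hold, by their values, each distinct read sequence of a library with its raw count; the authors' adapter trimming and filters are not given in the sources used here. Sequences of 18 nt or more were matched exactly to GENCODE vM21 transcripts of GRCm38. Introns were not searched as such, so an intron read was found only where an annotated transcript covers it. The 7 genes and the gene lists were chosen with earlier results of these data known. Counts of 8 libraries were tested with edgeR 4.0.16 (glmQLFit, glmQLFTest, library totals as sizes, filterByExpr, Benjamini-Hochberg, threshold 0.05) in R 4.3.3, apart for windows and for the rest of transcripts, and DESeq2 1.42.0 was an alternative. The edgeR fit was tested on simulated data. Shares were compared by exact permutation over libraries with scipy 1.17.1, and single libraries by ratios with exact 95% intervals for counting error only. PCR copies carry no molecular identifiers, so reads are not independent molecules. Named list genes were the 2 of each list with the highest mean window CPM, and printed RNAs the most read of at most 30 nt. Reads across small RNA gene ends, exon-end reads and the Nop56 intron RNA were singled out after their values were seen.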

Additional observations from a re-analysis of the deposited data

Results flagged for a closer look

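The change over input of 5 windows differed between the FHAgo2 and no-tag lines by edgeR's interaction test with Benjamini-Hochberg adjustment, beside 20.5% of all windows called lower. The median log2 value was −3.03 over the 7 genes and −2.31 over all windows. The log2 values, FHAgo2 minus no-tag, were −3.15 for Ran, −3.61 for Hnrnpk, −2.70 for Hsp90ab1, −3.62 for Ncl and −3.03 for Nop56. All 5 stayed below 0 with any 1 library left out, and no call held with TMM factors, DESeq2 or scaling to reads outside hairpins. The FHAgo2 IP held 23.6 and 23.8% of its reads outside hairpins, and the part of that share in these 5 values beyond the rescaling was not tested.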

How the results depend on the processing

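Counts of the 7 genes called depend on scaling. Windows lower in the FHAgo2 than the no-tag IP numbered 7, and 0 with TMM factors, DESeq2, scaling to reads outside hairpins, or each distinct sequence counted once; without 1 library the count spanned 0 to 7, with 0 without FHAgo2 IP B. Windows lower in the FHAgo2 IP than its input numbered 1, then 0 outside hairpins, with sequences counted once or without reads across small RNA genes, and 2 in the first 100 nt (0 to 2 without 1 library). Windows higher in the no-tag IP than its input numbered 4, and 0 with TMM factors, DESeq2 or sequences counted once (0 to 7). For the change over input the 5 became 0 with those settings, outside hairpins or with no filter (0 to 7). In the rest of transcripts the 7 lower in the FHAgo2 than the no-tag IP became 0 under the same 4 settings as for windows (0 to 7, with 0 without either FHAgo2 IP library and 1 without no-tag IP A), the 0 against the FHAgo2 input became 1 with TMM factors or DESeq2 (0 to 0 without 1 library), the 6 above the no-tag input became 0 with TMM factors or DESeq2 and 2 with sequences counted once (0 to 6), and the 0 in the change over input spanned 0 to 4. Over all windows the split of 27 higher and 799 lower became 75 and 1 with TMM factors, 68 and 0 with DESeq2, 77 and 3 of 1398 outside hairpins and 0 and 0 with sequences counted once, and the 556 and 22 of the no-tag IP against input became 5 and 53, 1 and 43, 733 and 18, and 0 and 0.

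Of 840 log2 values of the 7 genes under other settings, libraries left out apart, 61 had the opposite sign, of which 31 are FHAgo2 IP minus FHAgo2 input and 14 no-tag IP minus no-tag input. Of these, 12 had passed the test in 1 of the 2 fits compared, and the cause was not tested beyond the scaling itself. Scaled to reads outside hairpins, FHAgo2 IP minus FHAgo2 input changed sign for 6 of 7 windows and for 5 of 7 genes in the rest. Only the 12 are listed here. FHAgo2 IP minus FHAgo2 input windows became 1.97 for Actg1 and 1.74 for Hsp90ab1 outside hairpins. The change over input of Ran became 0.0544 with sequences counted once. In the rest, FHAgo2 minus no-tag IP became 0.46 with TMM factors and 0.44 with DESeq2 for Nop56. No-tag IP minus no-tag input became −0.64 and −0.57 for Actb, −0.51 and −0.43 for Actg1 and −0.14 and −0.0556 for Ncl with TMM factors and DESeq2, and −1.55 for Nop56 with TMM factors.

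The labels do not say what the library codes mark, and each code occurs once in each of the 4 groups. Deviations of same-coded libraries correlated at 0.338 for windows and 0.379 for the rest between the FHAgo2 and no-tag IP, and at 0.0941 to 0.207 between other groups. With the code as a replicate block, 7 windows were lower in the FHAgo2 than the no-tag IP, beside 822 of all 928 windows. In the FHAgo2 IP 2 were lower than its input (77 of 928). In the no-tag IP 6 were higher than its input (712 of 928), and 7 were lower in the change over input (491 of 928). In the rest these counts of the 7 genes were 7, 1, 7 and 7 (2218 of 3635 transcripts for the last, against 30 without the block). For the comparisons before it, the fit without the block called 85.1, 0.743 and 84.8% of all transcripts in those directions. Without reads across small RNA genes, 6 windows, beside 60.6% of 917, and 7 genes in the rest were higher in the no-tag IP than its input. With those reads kept, 84.8% of all transcripts in the rest were called higher.

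Summed window ratios, for doxycycline over none, none over wildtype and Dicer-null over wildtype, were 1.12, 1.20 and 1.27 outside hairpins. With shared reads the last 2 were 1.75 and 1.84, and with sequences counted once 1.16 and 1.26. Without reads across small RNA genes the first was 0.850 and the last 1.92. For the rest they were 1.20, 1.02 and 1.06 outside hairpins, 1.04 (first) and 1.45 (last) with shared reads, 1.17 and 1.26 (last 2) with sequences counted once, and 0.916, 1.56 and 1.87 without reads across small RNA genes. Of the shares, the FHAgo2 minus no-tag IP difference changed sign in 15 of 71 other settings and 13 of 36 with 1 library left out, and the IP minus input differences in 4 and 2 (FHAgo2) and 1 and 0 (no-tag); none of those whose libraries did not overlap changed sign. The share of 18 to 19 nt has no value for reads of 20 nt or more. Depth limits Hnrnpk, Ncl and Nop56 gene starts most, with 9 to 14 reads in the FHAgo2 IP.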

Other observations

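One short RNA of Nop56 was higher in the FHAgo2 IP, unlike the windows, and was singled out after its values were seen. Reads clustered around chr2:130277007-130277029, at the end of intron 7 of Nop56-202 (chr2:130276859-130277031, 173 nt), numbered 17 and 34 in the FHAgo2 IP (1.03 and 1.13 CPM), against 3 and 1 in the no-tag IP (0.169 and 0.0549 CPM). The inputs had 0 and 0 (FHAgo2) and 1 and 1 (no-tag), and the single libraries 6 with doxycycline, 2 without, 6 in Dicer-null and 10 in wildtype cells. Of 81 reads 70 were 20 to 24 nt long. The most read form, with no capitals, is shown because its size and library differ from the window RNAs.
Nop56 intron RNA: acctcctcctcggatctttctcc

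Actg1 had a 21 nt RNA, chr11:120347349-120347369, that runs 1 nt past the annotated hairpin Mir6935, with 5 reads in the FHAgo2 IP, all in library B, and 1 in the no-tag IP.
Actg1 intron RNA: tgttctttgtctttccacaga

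Antisense reads within 250 nt before to 50 nt after the RefSeq start were counted for the 5 genes with an entry (Actg1, Hnrnpk, Ncl, Nop56 and Ran). Nop56 had 34, of which 0 were in the FHAgo2 IP, 2 in the no-tag IP, 9 in the FHAgo2 input and 5 in the no-tag input, and 1, 7, 8 and 2 with doxycycline, without it, in Dicer-null and in wildtype cells. The other 4 genes had 2 to 4 each.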
